A study of Mus musculus with 4 samples.

Results

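Cycling CD8 T cells were followed in CD45-selected cells from liver tumours of mice. A barcode counted as one of them when it had 300 or more detected genes and under 15% mitochondrial unique molecular identifiers (UMIs, each standing for 1 captured RNA molecule). It also needed at least 2 UMIs of Cd3d, Cd3e and Cd3g together, at least 1 of Cd8a and Cd8b1 together, 0 of Cd4, and at least 3 of Mki67 and Top2a together. Barcodes in which C1qa, C1qb and C1qc made up 0.5% or more of UMIs were left out, since these genes mark macrophages. The rule found 418 cells among 2230 CD8 T cells of the same gate, 42617 barcodes past the gene and mitochondrial filters and 50062 deposited barcodes. Because measured RNA chose the cells, the genes named in the rule got no test. The cell cycle genes are given as descriptions with no p-value, though they are among the genes tested and counted.

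The study set a low-fat against a high-fat diet and a tumour line against its Yap knockdown derivative, with 1 library for each combination. All mice were C57BL/6J and labelled wild type, and all tumours were liver metastases of MC38, a mouse colon carcinoma line. WT-MC38 is the unmodified line and shYap-MC38 carries a short hairpin RNA against Yap, the co-activator that the Hippo pathway restrains. The hairpin sequence, the number of clones, the number of mice per library and their ages are not given in the sources used here. LFD_WT, the low-fat library with WT-MC38, gave 79 cycling CD8 T cells. LFD_shYap, low-fat by its title and with shYap-MC38, gave 106, and its treatment field says high-fat diet, so each diet value was also computed with that label. HFD_WT, the high-fat library with WT-MC38, gave 139, and HFD_shYap, the high-fat library with shYap-MC38, gave 94. Values below stand in that order of libraries unless a sentence names them.

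Naive CD8 T cells divide little, and an antigen signal through the T cell receptor with costimulation drives a burst of divisions that builds cytotoxic effectors. In tumours, dividing CD8 T cells usually include cells on the path from Tcf7-expressing progenitors to cells with inhibitory receptors such as PD-1. Division runs through a phase of DNA replication, which needs E2F targets such as the Mcm helicase, and a phase of mitosis, which needs Cdk1, cyclin B and the spindle genes.

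Libraries held 9582 to 14779 deposited barcodes, and the summed cycling CD8 T cells held 998633, 1882068, 1791282 and 1849309 UMIs. LFD_WT therefore gives the least precise levels. Barcodes with at least 10 UMIs of tumour-like and stromal markers and none of Ptprc held Yap1, the target of the hairpin, at 20.7 (95% Poisson interval 18.5 to 23.1), 18.3 (16.2 to 20.5), 16.4 (14.3 to 18.6) and 22.4 (18.4 to 26.9) CPM, the UMIs of a gene in a sum scaled to a total of 1000000. In these barcodes, which can include stroma of the host, Yap1 was not lower in HFD_shYap than in HFD_WT. Over all barcodes past the filters it was lower, at 4.08 (3.73 to 4.46), 3.32 (3.01 to 3.66), 2.64 (2.38 to 2.92) and 1.60 (1.37 to 1.86) CPM, where these tumour-like barcodes numbered 684, 697, 575 and 127, so tumour line below means the label. Xist, a female-specific RNA, stood at 0.033, 0.024, 0.056 and 373 CPM over all barcodes past the filters. In LFD_WT, LFD_shYap and HFD_WT, 51, 88 and 105 cycling CD8 T cells had Y-linked RNA alone and 0 had Xist alone. The libraries thus differ in sex-linked RNA, and the diet and tumour line comparisons carry that difference. HFD_shYap held cells with Xist and cells with Y-linked RNA. Its cycling CD8 T cells were 39 with Xist alone, 37 with Y-linked RNA alone, 7 with both and 11 with neither. Each comparison across genes and the share of CD8 T cells that cycle were also computed with either kind alone in that library. The other counts and shares of cells were not. Each pair of libraries shared 33 to 63 barcodes, and no barcode of a cycling CD8 T cell occurred in another library's cycling CD8 T cells. Intervals on single libraries cover counting error only. A p-value rests on how the 4 libraries, or 3 in comparisons with CD4 T cells, scatter, which may be technical. In edgeR that scatter is moderated across genes, which weighs most for diet and tumour line, with 1 residual degree of freedom.

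The markers given here are genes of the rule, so their presence was fixed by it and does not test the name. Cd8a, the alpha chain of the CD8 coreceptor, stood at 237, 287, 374 and 312 CPM, and Cd8b1, its beta chain, at 377, 349, 463 and 297. Cd3e, a signalling chain of the T cell receptor complex, stood at 325, 390.0, 433 and 389.9 CPM. Mki67, which encodes the proliferation antigen Ki-67, stood at 339, 311, 412 and 324 CPM, and Top2a, the topoisomerase that untangles replicated DNA, at 661, 489, 639 and 504. All libraries carried these genes at a like order of size, and Cd4 was 0 by rule. The macrophage gene C1qa was present below the bound at 412, 361, 317 and 313 CPM, against 717, 434, 507 and 316 CPM in the 1359 non-cycling CD8 T cells, defined as the same gate with 0 UMIs of Mki67 and Top2a. Cycling cells were deeper, with median UMIs of 11569, 15161.5, 11643 and 17409 against 5068, 6259, 5555.5 and 7336. Barcodes among the highest doublet scores of their library were 11.4%, 15.1%, 17.3% and 17.0% of cycling cells, or 65 of 418 in all (15.6%), against 9.35% of non-cycling cells.

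Cycling cells were a minority of CD8 T cells in every library. By library they made up 20.5% (16.6 to 24.9), 22.7% (19.0 to 26.8), 17.0% (14.5 to 19.8) and 16.8% (13.8 to 20.1) of them, with exact binomial limits at 95%. Both low-fat libraries were above both high-fat libraries, with intervals that overlap, and with 1 library per combination and cells that are not replicates no test was made. A count threshold reads depth, so cells under 5000 UMIs were also left out, which removed 142, 114, 263 and 78 cells, and the others were thinned to 5000 UMIs each. Among the cells left, the shares were 31.7%, 28.9%, 24.0% and 18.6% before thinning and 23.9%, 19.0%, 18.6% and 11.0% after it. Thinning to 3000 UMIs used another set of cells, with 30, 21, 74 and 18 cells under that depth left out. There the shares were 10.1%, 10.3%, 8.75% and 8.29%. LFD_shYap, highest over all cells, was below LFD_WT once the shallower cells were left out, both before and after thinning to 5000 UMIs. HFD_shYap was lowest in these 4 versions. At 2 or more Mki67 and Top2a UMIs it was lowest by little, at 22.1% against 22.2% in HFD_WT. It was also lowest with a tighter C1q bound (17.1%) and without high doublet scores (15.3%). At 5 or more such UMIs it was not lowest, at 13.9% against 13.6% in HFD_WT. Counting only its cells with Xist alone it had 19.9%, and only those with Y-linked RNA alone 17.5%, both above the 17.0% of HFD_WT. As a share of all barcodes past the filters, cycling CD8 T cells were 0.629%, 1.07%, 1.14% and 1.19%. In cells that should lack much division, neutrophil-like barcodes, 3 or more Mki67 and Top2a UMIs occurred in 0.803%, 4.56%, 2.11% and 0.593%. Among CD4 T cells of the same kind of gate, 17.4% cycled in LFD_WT, 17.9% in HFD_WT and 17.4% in HFD_shYap, and 0 of 26 in LFD_shYap, which allows up to 13.2% by exact binomial interval.

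**Figure D1:**
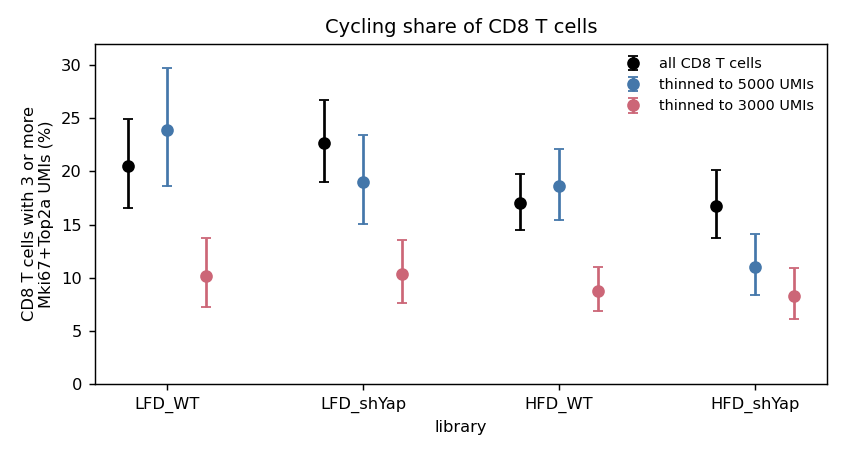
Percentage of CD8 T cells with 3 or more UMIs of Mki67 and Top2a in each of the 4 libraries (x axis). Shares are given for all cells and after thinning to 5000 or 3000 UMIs, with cells below that depth left out. Points are shares and bars are 95% exact binomial intervals. Unthinned shares run from 16.8% to 22.7%, and thinning to 5000 UMIs moves HFD_shYap to 11.0%.

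The threshold cut a continuous range. The median of Mki67 and Top2a UMIs in cycling cells was 10, 11, 11 and 13, and the highest cell had 71. Summed over libraries, the 44 cells just inside the threshold, with 3 UMIs, held 2537 CPM of the G1/S list and 3533 of the G2/M list. The 101 cells just outside, with 2 UMIs, held 2229 and 2558. Cells with 0 held 1081 and 1557, and the 343 cells with 5 or more held 3665 and 8730. RNA of the G2/M list climbed most between 3 and 5 or more UMIs, and cells just outside the threshold carried more replication RNA than cells at 0.

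Most cycling cells carried more RNA of the G2/M list, of 53 genes, than of the G1/S list, of 42 genes. Non-cycling CD8 T cells did so too in sum, with 1557 against 1081 CPM, so a ratio above 1 does not by itself mark mitosis. The G2/M list was at least double the G1/S list in 38 of 79, 56 of 106, 86 of 139 and 42 of 94 cells, which is 48.1%, 52.8%, 61.9% and 44.7%. The G1/S list was at least double the G2/M list in 4, 0, 2 and 2 cells, and 188 of the 418 lay between, with 37 cells of all near either cut. The median ratio of G2/M to G1/S UMIs per cell was 1.88, 2.25, 2.36 and 1.64. The share with a G2/M list at least double was highest in HFD_WT and lowest in HFD_shYap. Top2a and Mki67 are themselves most abundant towards mitosis, so the rule favours such cells, and the classes are ranges of a ratio with no test.

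**Figure D2:**
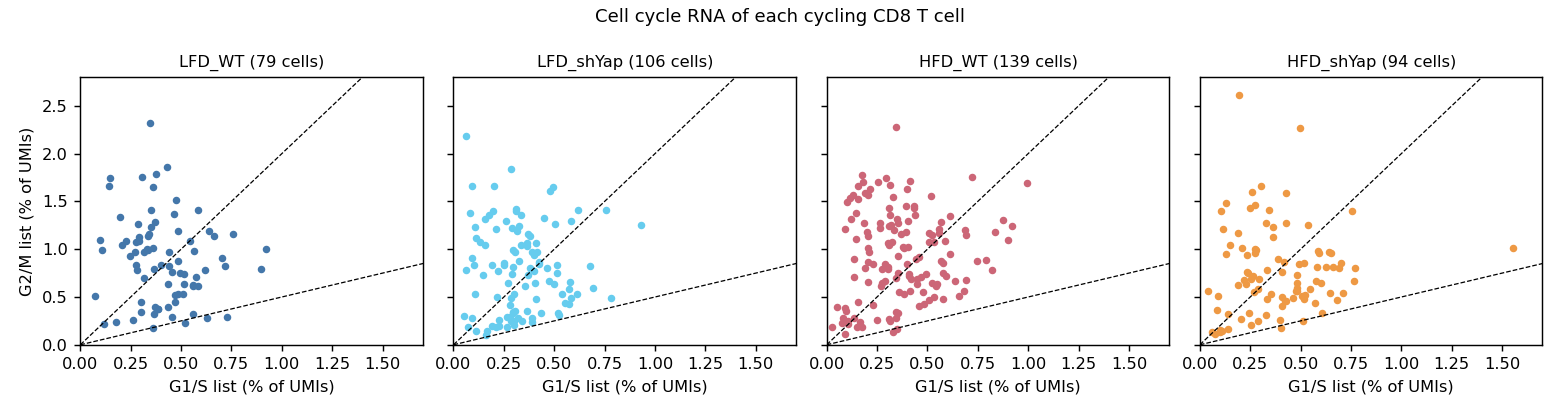
Share of each cell's UMIs in the G1/S and DNA replication list (x axis, %) and in the G2/M and mitosis list (y axis, %), 1 point per cycling CD8 T cell and 1 panel per library; dashed lines mark a ratio of 2 in either direction. Points above the upper line are 48.1%, 52.8%, 61.9% and 44.7% of the cells, and few points lie below the lower line.

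The cell cycle genes were high in cycling cells, as the rule fixes, and the order among them is the description of interest. Over the 42 genes of the G1/S list the median log2 fold change against non-cycling cells was 2.08, with a range of 0.28 to 4.54, and over the 53 genes of the G2/M list it was 3.60, with a range of 0.62 to 6.19. Hist1h1b, a linker histone made with new DNA, stood at 741, 678, 1058 and 628 CPM against 9.46, 12.2, 12.8 and 4.41. Hmmr, a spindle assembly factor, had a log2 fold change of 6.19, Ccna2, the cyclin of replication and early mitosis, 5.24, and Birc5, the survivin subunit of the chromosomal passenger complex, 4.94. Ccnb1, the mitotic cyclin, had 4.20, and its kinase Cdk1 3.60. Replication genes sat lower, with Pcna, the polymerase clamp, at 1.20, Mcm7, a helicase subunit, at 2.41, and Uhrf1, which carries DNA methylation through replication, at 3.17. The gap between a gene that resting cells also express, such as Pcna, and one they nearly lack, such as Hist1h1b, is a gap of relative change and not of level.

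Promoters of this pair of lists hold different short words, and 4 are shown because Cdk1 and Hmmr stand for the mitotic genes and Mcm7 and Uhrf1 for the replication genes. Sequences are the 250 bases upstream of the RefSeq start on GRCm38.p6, 5′ to 3′ on the gene's strand, from chr10:69352913-69353162 and chr11:40733438-40733687 on the minus strand, chr5:138171884-138172133 on the minus strand and chr17:56303087-56303336 on the plus strand. Capitals mark the words searched on both strands, which are TTTGAA (the cell cycle homology region), CCAAT (the NF-Y box) and GCGGGAA (an E2F word), so capitals can also show their reverse complements.
Cdk1: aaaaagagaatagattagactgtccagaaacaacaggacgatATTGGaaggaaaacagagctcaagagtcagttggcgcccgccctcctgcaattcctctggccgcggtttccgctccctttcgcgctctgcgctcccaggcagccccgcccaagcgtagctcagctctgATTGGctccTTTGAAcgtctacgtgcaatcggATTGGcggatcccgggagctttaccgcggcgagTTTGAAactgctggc
Hmmr: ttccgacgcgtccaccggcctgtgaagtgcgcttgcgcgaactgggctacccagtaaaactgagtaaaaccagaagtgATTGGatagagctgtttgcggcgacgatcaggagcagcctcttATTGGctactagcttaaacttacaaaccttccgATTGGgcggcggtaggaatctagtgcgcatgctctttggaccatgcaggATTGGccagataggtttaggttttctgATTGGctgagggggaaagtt
Mcm7: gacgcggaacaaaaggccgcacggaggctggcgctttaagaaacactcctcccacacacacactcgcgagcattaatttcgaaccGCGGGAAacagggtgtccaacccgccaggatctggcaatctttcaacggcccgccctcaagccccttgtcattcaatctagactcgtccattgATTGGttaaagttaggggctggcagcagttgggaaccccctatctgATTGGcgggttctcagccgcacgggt
Uhrf1: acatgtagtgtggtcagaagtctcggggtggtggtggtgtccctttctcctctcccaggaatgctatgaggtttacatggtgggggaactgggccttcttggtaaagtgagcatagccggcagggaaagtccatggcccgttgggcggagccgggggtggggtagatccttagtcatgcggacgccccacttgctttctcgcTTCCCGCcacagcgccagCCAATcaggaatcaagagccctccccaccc
TTTGAA occurred in 17 of 46 matched G2/M promoters (37.0%), in 5 of 30 G1/S promoters (16.7%) and in 16.3% of 27025 promoters of the same length. CCAAT occurred in 35 of 46 (76.1%), in 21 of 30 (70.0%) and in 34.5% of all. GCGGGAA occurred in 11 of 30 G1/S promoters (36.7%), namely those of Casp8ap2, Cdc6, Cdca7, Chaf1b, Dtl, Hells, Mcm7, Pola1, Prim1, Rrm1 and Uhrf1, in 0 of 46 G2/M promoters and in 3.84% of all. The E2F word was thus seen on the replication side of these lists alone, while CCAAT was common to both. These are matches of letters with no test and no matching on base composition, and they say nothing of binding.

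Compared with non-cycling CD8 T cells of the same libraries, cycling cells held a smaller share of their RNA in naive and memory genes. Their shares in nucleotide synthesis, glycolysis and respiration were larger. These levels are relative to all UMIs of a sum, and cycling cells were deeper. A lower level therefore need not mean fewer UMIs per cell. Of 9561 genes tested with edgeR, 1608 were higher and 1176 lower at an adjusted p under 0.05, which is 29.1% of the genes, 16.8% higher and 12.3% lower. Outside the cell cycle lists 1514 were higher and 1176 lower, and the median over all genes was -0.01. The split itself used 2 genes of the same cells, so list counts are read against that background. DESeq2 called 1451 genes, and leaving out a library gave 1940 to 2605. Of the 2784 called genes, 1304 were called with the same sign in each of 15 alternatives.

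The genes of quiescent and memory T cells were lower as a group, 10 of 13 tested with 0 higher and a median log2 fold change of -1.21. Tcf7, the transcription factor TCF-1 of naive and progenitor cells, stood at 13.0, 4.25, 7.26 and 4.87 CPM against 37.1, 20.3, 19.9 and 35.3 (log2 fold change -2.04 ± 0.23, SE, edgeR adjusted p = 5.53e-06). Il7r, the interleukin 7 receptor of resting cells, stood at 24.0, 17.0, 26.2 and 41.1 CPM against 66.2, 56.7, 69.7 and 84.5 (log2 fold change -1.39 ± 0.14, edgeR adjusted p = 1.08e-06). In both genes all 4 cycling values lay below all 4 non-cycling values. Bcl2, a survival factor, stood at 124, 104, 91.0 and 67.6 CPM against 269, 267, 166 and 233 (log2 fold change -1.31 ± 0.12, edgeR adjusted p = 3.66e-07). S1pr1, the receptor for leaving tissue, had a log2 fold change of -1.51 ± 0.22, and Ccr7, the lymph node homing receptor, -0.69 ± 0.22 (edgeR adjusted p = 6.61e-05 and 0.026). Satb1, a chromatin organiser of T cells, had -1.21 ± 0.13 (edgeR adjusted p = 1.98e-06). Klf2, a quiescence factor, did not pass at -0.29 ± 0.15 (edgeR adjusted p = 0.165). The call of Ccr7 was lost without LFD_WT, at -0.49, or without HFD_WT, at -0.46, and Klf2 was called without HFD_WT, at -0.49. Among cells with 5000 or more UMIs, each thinned to 5000, a Tcf7 UMI was found in 6.5%, 2.0%, 4.5% and 4.4% of cycling cells and in 14.96%, 7.9%, 5.7% and 12.2% of non-cycling cells, and unthinned in 10.4%, 3.9%, 5.3% and 5.6% against 17.3%, 10.5%, 7.0% and 15.6%. Macrophage-like barcodes, which should lack it, had one in 0.272% to 0.646%, unthinned, at median depths of 10362 to 13627 UMIs.

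A chemokine was among the genes with the largest fall. Ccl5, which draws T cells and myeloid cells and is stored by memory and effector CD8 T cells, stood at 1482, 1490.4, 1618 and 1232 CPM in cycling cells and 4695, 5327, 4136 and 4257 CPM in non-cycling cells (log2 fold change -1.69 ± 0.06, edgeR adjusted p = 3.45e-12). The classes were far apart in each of the 4 libraries. Of 12 tested cytokines and TNF family genes, 4 were lower and 2 higher. Tnf fell with a log2 fold change of -1.21 ± 0.25 and Ccl4, another chemokine, with -0.72 ± 0.13 (edgeR adjusted p = 0.00156 and 0.000399). Ifng, the main CD8 T cell interferon, was not called at -0.34 ± 0.18 (edgeR adjusted p = 0.168). Xcl1, which attracts cross-presenting dendritic cells, was higher at 0.76 ± 0.27 (edgeR adjusted p = 0.0413), and it was not called without LFD_shYap (0.29), without HFD_shYap (0.64) or without each library's highest cell (0.51). Ifng was called at -0.54 without LFD_shYap.

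Cytotoxic genes did not move as a group, with 1 of 13 higher, 3 lower and a median log2 fold change of 0.01. Gzmb, the granzyme that cleaves caspases in target cells, stood at 357, 232, 267 and 468 CPM against 215, 256, 311 and 282 (log2 fold change 0.24 ± 0.14, edgeR adjusted p = 0.216). It was above the non-cycling level in LFD_WT and HFD_shYap and below it in LFD_shYap and HFD_WT. Cells with a Gzmb UMI were 48.1%, 39.2%, 44.4% and 54.4% of cycling and 33.1%, 47.6%, 43.8% and 39.3% of non-cycling cells after thinning, and 63.6%, 62.7%, 65.4% and 68.9% against 40.9%, 54.5%, 53.2% and 50.7% before it. Macrophage-like barcodes had a Gzmb UMI in 1.17% to 2.09%, unthinned. Prf1, the pore former perforin, had a log2 fold change of 0.01 ± 0.12 (edgeR adjusted p = 0.974). The lower genes were Nkg7, a granule membrane protein, at -0.38 ± 0.05, Ctsw, a cathepsin, at -0.52 ± 0.09 and Fasl, the death ligand, at -0.69 ± 0.11 (edgeR adjusted p = 7.88e-06, 0.000248 and 0.000217). Gzmc alone was higher, at 1.99 ± 0.50 (edgeR adjusted p = 0.0071), and it was not called without HFD_WT, at 0.52, or without the highest cell of each library, at 0.49. With 5 or more Mki67 and Top2a UMIs its value was -0.40. Gzmb was called, at 0.41, without HFD_WT.

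Inhibitory receptors and exhaustion factors held 5 lower and 2 higher of 16 tested, with a median of -0.09. DESeq2 called 3 lower and 0 higher. Pdcd1, which encodes PD-1, stood at 155, 188, 269 and 248 CPM against 172, 259, 331 and 292 (log2 fold change -0.32 ± 0.08, edgeR adjusted p = 0.0064), so its share of UMIs was lower in cycling cells in each library. The call was lost without LFD_shYap, at -0.27, among cells with 5000 or more UMIs, at -0.21, and with C1q genes under 0.1% of UMIs, at -0.30. Among cells with 5000 or more UMIs, a Pdcd1 UMI was found in 63.6%, 83.3%, 82.7% and 82.2% of cycling cells, against 45.7%, 70.7%, 73.6% and 66.7% of non-cycling cells. At equal depth of 5000 UMIs the shares were 42.9%, 62.7%, 63.9% and 63.3% against 41.7%, 58.6%, 65.9% and 57.4%. These shares do not follow the CPM, so no order is read from them. Macrophage-like barcodes had one in 0.627% to 1.51%, unthinned. Lag3, another inhibitory receptor, was lower at -0.35 ± 0.10 (edgeR adjusted p = 0.0125, and not called without HFD_shYap, at -0.30), and Nr4a3, a factor induced by receptor signals, at -0.52 ± 0.10 (edgeR adjusted p = 0.00125). Havcr2, which encodes TIM-3, was at 0.27 ± 0.16, Ctla4 at 0.12 ± 0.13 and Tox, the factor of the exhausted state, at -0.18 ± 0.09, none of them called (edgeR adjusted p = 0.233, 0.505 and 0.171).

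**Figure D3:**
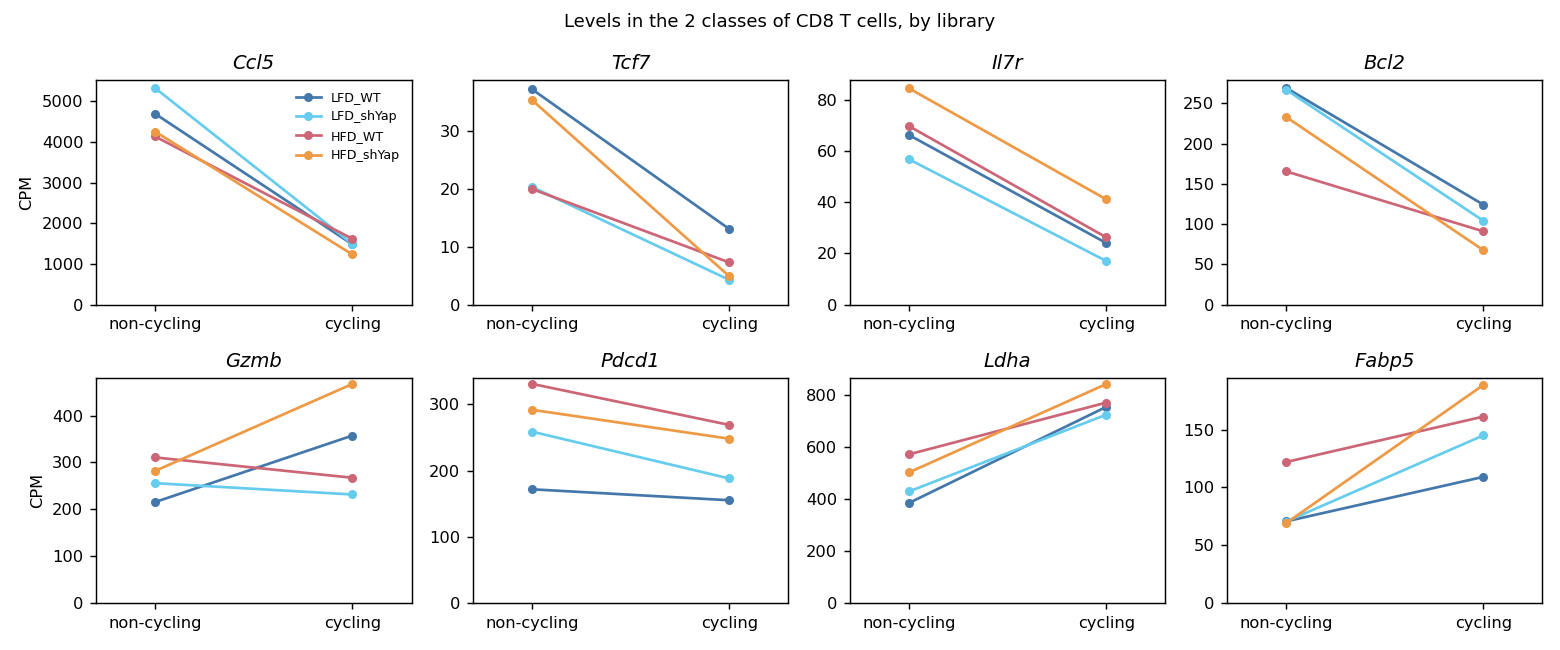
CPM of 8 genes (y axis, from 0) in the summed non-cycling and cycling CD8 T cells of each library, with 1 line per library. Ccl5, Tcf7, Il7r and Bcl2 fall in all 4 lines and Ldha and Fabp5 rise in all 4, while Gzmb rises in LFD_WT and HFD_shYap and falls in the other libraries.

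Of the receptor signalling and homing genes that passed the test, each was lower. Of 15 T cell receptor genes outside the rule 6 were lower and 0 higher, among them Ptprc, which encodes CD45, at -0.41 ± 0.06 (edgeR adjusted p = 8.06e-05). Of 11 residency and homing genes 4 were lower, with Ccr2 at -1.08 ± 0.19, Itga1, a collagen-binding integrin, at -1.05 ± 0.27 and Cxcr6 at -0.53 ± 0.10 (edgeR adjusted p = 0.00044, 0.00802 and 0.000625). Itga1 was at -0.79, not called, without HFD_shYap and at -1.77 without HFD_WT. Of 14 interleukin 2 and common gamma chain genes 4 were lower and 1 was higher. Il2ra, the high-affinity subunit, was the higher one at 0.74 ± 0.20 (edgeR adjusted p = 0.0104), and it lost the call without HFD_shYap, at 0.45, or without the highest cells, at 0.55. Among 17 regulators of G1 and inhibitors of the cycle, whose members share their function with the rule, the median was 0.33, from Btg1, an antiproliferative gene, at -0.84 and Ccnd2 at -0.78 to Cdk4 at 0.96, E2f1 at 2.05 and E2f2 at 3.19.

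Biosynthesis genes were higher. All 18 tested nucleotide synthesis genes were called higher, and their summed level was 2306, 2078, 1827 and 1965 CPM in cycling cells against 908, 876, 906 and 849 CPM. Tk1 and Tyms, which make thymidine nucleotides, had log2 fold changes of 3.08 ± 0.16 and 2.53 ± 0.12 and are themselves E2F targets of the cycle, while Impdh2, of purine synthesis, had 0.92 ± 0.09 (edgeR adjusted p = 8.19e-07). Values over the list ran from 0.54 to 4.26. The count and the sum include such cycle genes, which the rule favours, and were not computed without them. Of 13 glycolysis genes 7 were higher and 0 lower. Ldha, lactate dehydrogenase, stood at 755, 725, 772 and 843 CPM against 385, 429, 572 and 503 (log2 fold change 0.69 ± 0.08, edgeR adjusted p = 3.56e-06), and Tpi1, an isomerase of glycolysis, had 0.77 ± 0.09 (edgeR adjusted p = 1.08e-05). The summed glycolysis list was 4232, 4695, 5069 and 5874 CPM against 2716, 3008, 4140 and 3637. Of 16 respiration genes 14 were higher and 0 lower with a median of 0.41, for instance Cycs, cytochrome c, at 0.56 ± 0.10 (edgeR adjusted p = 0.000355). DESeq2 called 10 of these.

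Lipid genes were split. Of 13 cholesterol and fatty acid synthesis genes 6 were higher, with Idi1 at 1.25 ± 0.19, Fdft1 at 1.05 ± 0.28 and Sqle at 0.99 ± 0.30 (edgeR adjusted p = 8.39e-05, 0.00999 and 0.0194), all enzymes between mevalonate and sterols. The count of 6 fell to 2 without LFD_shYap or without HFD_shYap and to 1 with DESeq2. Fabp5, a fatty acid chaperone, stood at 109, 145, 161 and 189 CPM against 70.6, 70.4, 122 and 69.0 (log2 fold change 0.85 ± 0.14, edgeR adjusted p = 0.000202), one of 5 higher genes of 11 in the uptake and oxidation list. Acadm, of medium-chain oxidation, was the 1 lower gene there, at -0.44 ± 0.16 (edgeR adjusted p = 0.0463), and it lost the call when any 1 of the 4 libraries was left out.

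**Figure D4:**
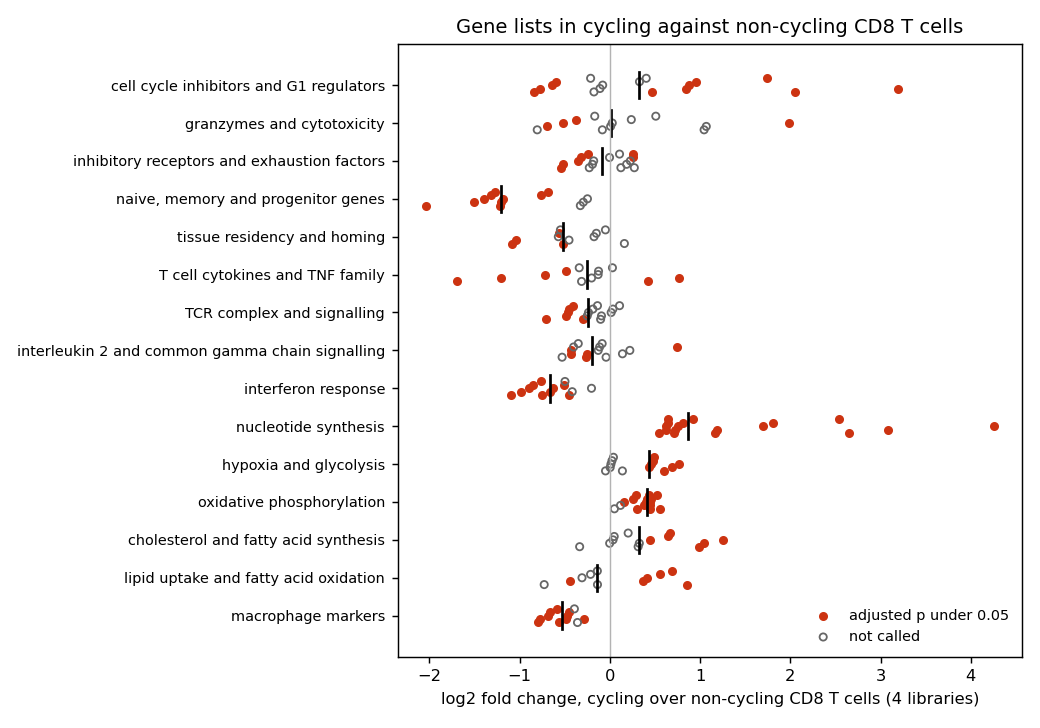
Log2 fold change of each tested gene (points) in cycling over non-cycling CD8 T cells over 4 libraries, by gene list; filled points have an edgeR adjusted p under 0.05 and black bars are list medians. The naive list lies below 0 with a median of -1.21 and nucleotide synthesis above 0 with 0.86, while granzymes centre on 0.01.

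Interferon response genes and macrophage markers were lower side by side. Of 13 interferon genes 10 were lower and 0 higher with a median of -0.66, including Ifit3 at -1.10 ± 0.20, Irf7 at -0.89 ± 0.13 and Isg15 at -0.66 ± 0.19 (edgeR adjusted p = 0.000608, 5.72e-05 and 0.0157), which are antiviral effectors and a regulator of them. Isg15 was not called without LFD_WT, at -0.66, or without LFD_shYap, at -0.35. Of 12 macrophage markers outside the rule 10 were lower, with a median of -0.53, and their sum was 5055, 4283, 3477 and 3719 CPM in cycling against 8960, 7063, 5765 and 4110 CPM in non-cycling cells. Where C1q genes were held under 0.1% of UMIs, 8 interferon genes were lower with a median of -0.72. The part of macrophage RNA in the interferon values was not tested further. Markers of natural killer cells held 4 lower and 1 higher of 7, with Klrb1c at -1.52 ± 0.28 lower and Klra4 at 1.94 ± 0.57 higher (edgeR adjusted p = 0.000713 and 0.0177), the latter not called without LFD_WT (1.48), LFD_shYap (1.03) or the highest cells (0.82). Of 8 tumour-like and stromal markers 3 were higher, including Hmga2 at 2.37 ± 0.42, and 2 lower, including Col1a1 at -1.55 ± 0.48 (edgeR adjusted p = 0.000451 and 0.0228). Col1a1 was not called without LFD_WT, at -0.76, or without LFD_shYap, at -1.33.

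Cycling CD4 T cells, chosen by the same rule with Cd4 in place of CD8, numbered 8 in LFD_WT, 20 in HFD_WT and 29 in HFD_shYap and none in LFD_shYap, so this comparison used 3 libraries. They were the nearest cells with the same cycling rule, and 28.1% of them had a high doublet score against 15.6% of cycling CD8 T cells. Of 7493 genes tested, 96 were higher and 101 lower in cycling CD8 T cells, which is 2.63%, 1.28% higher and 1.35% lower. Without LFD_WT the count was 430, without HFD_WT 59 and without HFD_shYap 159, and DESeq2 called 80. In each of 13 alternatives 32 genes kept their call and sign. As both classes were chosen by Mki67 and Top2a, cell cycle genes are given with no p-value. The log2 fold change was 0.04 ± 0.18 for Pcna, -0.10 ± 0.21 for Cdk1 and 0.02 ± 0.17 for Birc5.

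Several receptors shared with natural killer cells were higher in the CD8 lineage. Klrc1, which encodes the inhibitory receptor NKG2A, stood at 97.1, 105 and 108 CPM in LFD_WT, HFD_WT and HFD_shYap against 0, 3.80 and 1.48 in cycling CD4 T cells (log2 fold change 5.78 ± 0.49, edgeR adjusted p = 1.58e-05). It was nearly confined to the CD8 sums among these 6. Klrc2, the activating NKG2C, had 3.42 ± 0.46, and Cd160, a further receptor, 2.47 ± 0.38 (edgeR adjusted p = 0.000445 and 0.0018). Nkg7 stood at 1115, 1451 and 1089 CPM against 653, 350.0 and 357, and Ctsw had 1.77 ± 0.22 (edgeR adjusted p = 0.000115 and 0.000239). Of 5 natural killer markers in the list 1 was higher and 1 lower, with a median of -0.21. Markers of other cells also differed, with 3 of 5 neutrophil markers higher, among them S100a9, a calprotectin subunit, at 29.0, 541 and 145 CPM against 8.26, 7.61 and 0 (edgeR adjusted p = 1.05e-05), a call that was lost, at a log2 fold change of 6.34, without barcodes of high doublet score. Tcrg-C2, a constant segment of the gamma chain of gamma delta T cells, was the 1 tested gene of its list and stood at 78.1, 83.2 and 104 CPM against 16.5, 0 and 0 (log2 fold change 5.57 ± 0.66, edgeR adjusted p = 0.000157), and at 3.98 without HFD_shYap. Without LFD_WT its CD4 sums were all 0. The part of gamma delta T cells in these values was not tested. Of 13 cytotoxic genes 4 were higher and 1 lower, and of 14 inhibitory receptor genes 5 were higher and 1 lower. Lag3 was higher at 1.68 ± 0.32, Tox at 1.16 ± 0.25 and Pdcd1 at 0.89 ± 0.20 (edgeR adjusted p = 0.00758, 0.0201 and 0.026). These 3 lost their calls without HFD_WT, at 1.78, 0.87 and 0.80, and without HFD_shYap, at 1.14, 1.04 and 0.72. Gzmb was not called at 0.99 ± 0.29 (edgeR adjusted p = 0.0974), but was at 1.21 without LFD_WT.

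Of 7 markers of CD4 and regulatory T cells 4 were lower than in cycling CD4 T cells, and of 10 residency and homing genes 2 were lower, with a median of 0.04. Foxp3, the factor of regulatory T cells, had a log2 fold change of -3.65 ± 0.67 (edgeR adjusted p = 0.00604), and Ctla4 -0.88 ± 0.20 (edgeR adjusted p = 0.0216). Tnfrsf4, the costimulatory receptor OX40, stood at 139, 179.8 and 125 CPM against 413, 540.2 and 457 (edgeR adjusted p = 9.6e-05), with no overlap of the classes. Ccr2 had -2.30 ± 0.25, Ccr7 -1.37 ± 0.24 and Il7r -1.37 ± 0.35 (edgeR adjusted p = 9.6e-05, 0.00469 and 0.0473). Without HFD_WT, Ctla4 (-1.13), Ccr7 (-1.16) and Il7r (-1.04) were not called, and neither was Ctla4 (-0.69) without HFD_shYap, where Il7r was at -2.08. Cd74, the invariant chain of MHC class II, stood at 188, 1148 and 262 CPM against 3479, 3439 and 2185 (log2 fold change -2.82 ± 0.31, edgeR adjusted p = 9.6e-05), and H2-Ab1, a class II chain, had -3.00 ± 0.43 (edgeR adjusted p = 0.000853). Cd74 and the class II genes are made by macrophages and dendritic cells, the doublet scores were higher on the CD4 side, and with high scores removed 75 genes were called. The part of doublets in these values was not tested further.

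The difference between cycling and non-cycling cells itself was compared between the lineages. An interaction term was called for 21 of 8317 genes (0.252%), 7 of them more positive (0.0842%) and 14 more negative (0.168%) in CD8 T cells, and no gene kept the call in each of 13 alternatives. The values for Ccl5 (-0.06 ± 0.14), Il7r (0.37 ± 0.33) and Tcf7 (0.43 ± 0.63) were not called (edgeR adjusted p = 0.945, 0.833 and 0.921), which does not show that the lineages act alike. Gzma, a granzyme, had -2.95 ± 0.43 and Prf1 -2.93 ± 0.52 (edgeR adjusted p = 0.00112 and 0.011). Gzma stood at 2330.4, 7.61 and 2.97 CPM in the cycling CD4 T cells of the 3 libraries, so its value rests on the 8 cells of LFD_WT, and without that library it was 0.41, while Prf1 was at -2.40 and not called. Leaving out LFD_WT gave 13 called genes and leaving out HFD_WT gave 59.

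Between diets, cycling CD8 T cells differed in few genes, and several of these rested on a small number of cells. Of 8963 genes tested 25 were higher and 7 lower in the high-fat libraries, which is 0.357% in all, 0.279% higher and 0.0781% lower. With 1 library per combination the fit has 1 residual degree of freedom. The count was 97 without LFD_WT, 84 without LFD_shYap, 23 without HFD_WT and 40 without HFD_shYap, and 59 with the treatment field as the diet of LFD_shYap, 21 of them shared. Removing barcodes of high doublet score gave 49 genes, of which 19 were shared, and holding C1q genes under 0.1% gave 2, S100a9 and Gzmf. No gene was called in each of the 17 alternatives.

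Granzymes C and F, of the cluster Gzmc to Gzmg that strongly activated mouse CD8 T cells express, were the cytotoxic genes called. They lie in that cluster on the minus strand of GRCm38, Gzmc at chr14:56231441-56234656 and Gzmf at chr14:56205263-56211417. Gzmf stood at 14.0, 29.8, 135 and 189 CPM (log2 fold change 2.82 ± 0.21, edgeR adjusted p = 2.33e-05), and Gzmc at 8.01, 3.19, 74.2 and 22.2 CPM (2.98 ± 0.33, edgeR adjusted p = 0.000794). Both high-fat libraries were above both low-fat libraries. In HFD_WT the highest cell held 123 of 133 UMIs of Gzmc, and the highest cell for Gzmf held 204 of 241. Without the highest cell of each library Gzmc stood at 5.06, 2.69, 5.65 and 7.67 CPM and was not called, at 0.81, as it was not without HFD_WT, at 2.09, while Gzmf stood at 8.09, 20.4, 20.9 and 101 CPM and kept its call at 2.03, with LFD_shYap and HFD_WT nearly level. Over Gzmc to Gzmg together, 3 or more UMIs were found in 4, 6, 7 and 11 cells, which is 5.06%, 5.66%, 5.04% and 11.7% of the cycling cells. By this share HFD_WT was no higher than the low-fat libraries. There were 0 UMIs in 65, 90, 123 and 81 cells, and the highest cell had 15, 18, 425 and 210 UMIs. In HFD_shYap the cells with Xist alone held Gzmf at 419 CPM (95% Poisson interval 373 to 468) and those with Y-linked RNA alone at 36.9 (24.9 to 52.7). With only the latter in that library, Gzmf was not called, at 1.66.

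**Figure D5:**
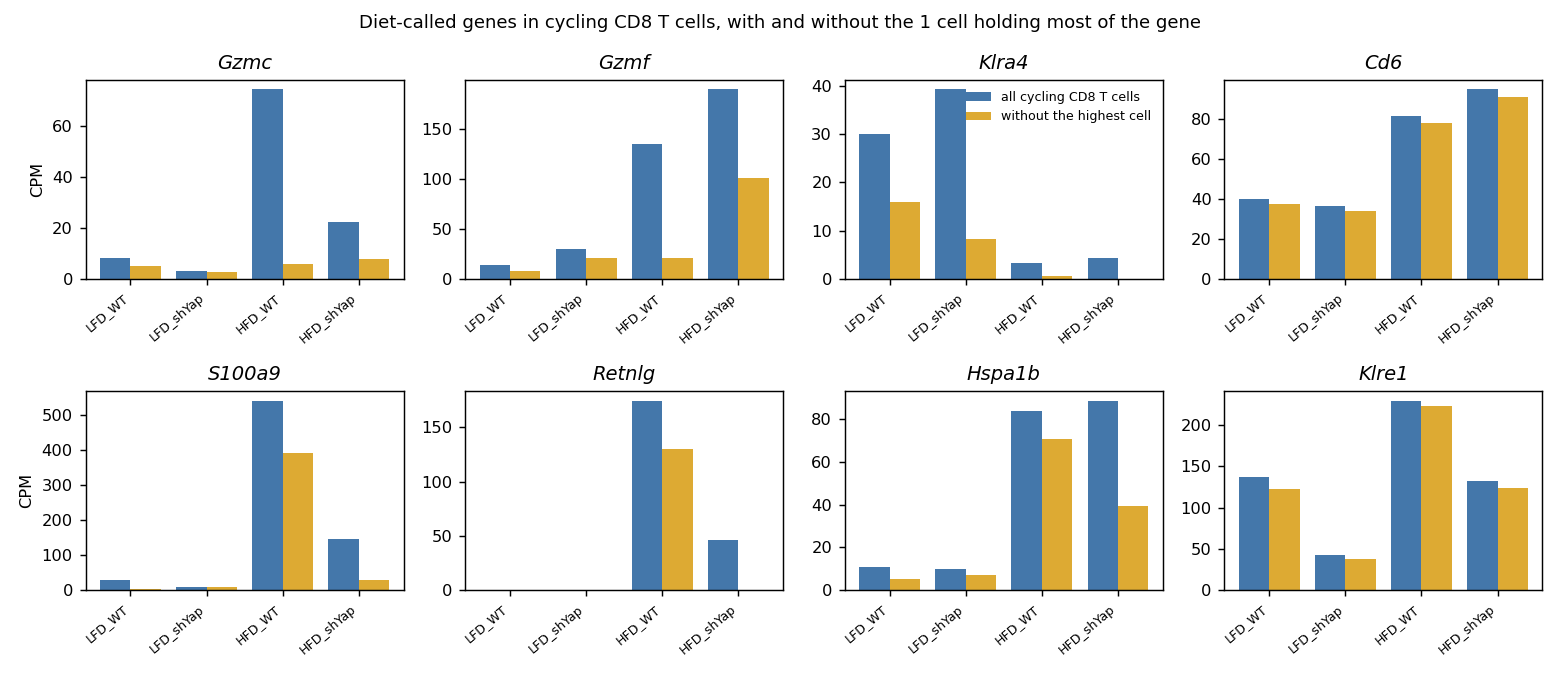
CPM of 8 genes called between diets (y axis, from 0) in the cycling CD8 T cells of each library, over all cells and without the 1 cell that holds most UMIs of the gene. Gzmc in HFD_WT drops from 74.2 to 5.65 CPM, whereas Cd6 and Klre1 keep nearly their full height.

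Other genes called between diets ranged from Cd6, found in many cells, to Klra4, found in few. Cd6, a receptor that tunes T cell adhesion and signalling, stood at 40.1, 36.7, 81.5 and 95.2 CPM (log2 fold change 1.18 ± 0.20, edgeR adjusted p = 0.0236), with UMIs in 29 of 79, 34 of 106, 80 of 139 and 60 of 94 cells. The diets did not overlap, and without each highest cell the value was 1.19. It was not called with the treatment field as diet label, at 0.99, without HFD_WT, at 1.28, or without HFD_shYap, at 1.06. Klre1, a lectin-like receptor of natural killer and CD8 T cells, stood at 137, 43.0, 229 and 132 CPM (log2 fold change 1.11 ± 0.21, edgeR adjusted p = 0.0461), and here LFD_WT lay above HFD_shYap. Klre1 was at 2.03 without LFD_WT and not called without LFD_shYap (0.36), HFD_WT (0.59) or HFD_shYap (1.40). Hspa1b, a heat shock chaperone that tissue dissociation also induces, stood at 11.0, 10.1, 83.7 and 88.7 CPM (log2 fold change 3.001 ± 0.25, edgeR adjusted p = 7.41e-05), high in both high-fat libraries. Bnip3, a hypoxia target, stood at 13.0, 29.2, 50.8 and 65.4 CPM (1.40 ± 0.26, edgeR adjusted p = 0.0461), at 2.11 without LFD_shYap and not called without LFD_WT (0.95), HFD_WT (1.48) or HFD_shYap (1.12). Klra4, a receptor of the Ly49 family, stood at 30.0, 39.3, 3.35 and 4.33 CPM from 3, 4, 2 and 1 cells (-3.19 ± 0.35, edgeR adjusted p = 0.000768).

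Neutrophil markers were among the genes higher in the high-fat libraries. S100a9, a neutrophil calprotectin subunit, stood at 29.0, 10.1, 541 and 145 CPM, and Retnlg, another neutrophil gene, at 0, 0, 175 and 46.5 CPM. In HFD_WT 11 cells held 1643 of 1687 UMIs of S100a8 and S100a9, and in HFD_shYap 2 cells held 413 of 441. Without barcodes of high doublet score S100a9 was at -0.27 in place of 4.01, so this difference went with those barcodes. Of 7 neutrophil markers 4 were called higher. Apoe, a macrophage gene, stood at 2744, 2522, 1629 and 1713 CPM (-0.70 ± 0.08, edgeR adjusted p = 0.00177), one of 12 macrophage markers tested and the one called lower.

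Genes that define the state of these cells were not called between diets. Pdcd1 stood at the levels given above and had 0.55 ± 0.16 (edgeR adjusted p = 0.362). Gzmb had 0.27 ± 0.25, Prf1 0.33 ± 0.17, Tcf7 -0.43 ± 0.55 and Ccl5 -0.11 ± 0.11 (edgeR adjusted p = 0.89, 0.777, 0.941 and 0.89). No gene of the naive, inhibitory receptor, cytokine, interferon, respiration or nucleotide lists was called. With 2 libraries a side, these SEs leave room for differences of the size of the SE and more, so the values do not show that the diets are alike.

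Tumour line gave still fewer calls in cycling CD8 T cells, 4 higher and 14 lower with shYap-MC38 of 8963 tested (0.201% in all, 0.0446% higher and 0.156% lower), and none was called in each of 17 alternatives. The count was 67 without LFD_WT, 1 without LFD_shYap, 53 without HFD_WT and 0 without HFD_shYap, where 394 genes had an unadjusted p under 0.05, and DESeq2 called 6. Mt1, a metallothionein that binds zinc, stood at 215, 519, 296 and 555 CPM (log2 fold change 1.08 ± 0.14, edgeR adjusted p = 0.00852), and Mt2, its neighbour, had 1.34 ± 0.21 (edgeR adjusted p = 0.0263). Both libraries labelled shYap were above both WT libraries in Mt1. Ifi27l2a, an interferon-induced gene, stood at 1030.4, 618, 1082 and 640.2 CPM (-0.75 ± 0.11, edgeR adjusted p = 0.0127), and it was the 1 of 13 interferon genes called. All 13 had values below 0, from -1.25 to -0.04 with a median of -0.65, against 0.002 over all genes. That shared direction was not tested. Klre1 was lower at -1.18 ± 0.21 (edgeR adjusted p = 0.0444), with WT above shYap within each diet, and at -0.51 without LFD_shYap, -0.69 without HFD_WT and -2.09 without HFD_shYap, not called in any of these. Gzmc was the 1 of 12 cytotoxic genes called, at -1.67 ± 0.29 (edgeR adjusted p = 0.0444), and without HFD_WT, whose highest cell held most of it, the value was 0.62. Il1b and Wfdc17, both myeloid genes, were lower at -1.44 ± 0.16 and -1.35 ± 0.17 (edgeR adjusted p = 0.00416 and 0.00518), as were 3 of 7 neutrophil markers. Of the neutrophil markers, S100a9, S100a8 and Retnlg stood at -1.81, -1.63 and -1.91. Without HFD_WT they changed sign, to 1.37, 1.41 and 8.18, so their direction rests on that library. Gzmb (0.10 ± 0.25), Pdcd1 (0.06 ± 0.16), Tcf7 (-1.09 ± 0.55) and Ccl5 (-0.20 ± 0.11) were not called (edgeR adjusted p = 0.991, 0.991, 0.935 and 0.965).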

How the data were processed

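Single-cell RNA sequencing libraries were made with the 10x Genomics 3′ v3.1 chemistry from CD45-selected cells, per the labels' protocols. Deposited values are unnormalized UMI counts, 1 matrix for each of 4 libraries. Cell Ranger is version 6.0.0 per the file headers but 4.0.0 per the submitters' processing notes, which also list STAR 2.5.1 and the build mm10. Because 3′ counts read transcript ends, splice forms were not analysed here, and reads of near-identical copies such as granzyme genes can be assigned to the wrong copy.

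Counts were summed per library and class, expressed as CPM of the sum, and tested by quasi-likelihood in edgeR 4.0.16 under R 4.3.3 (TMM, filterByExpr, Benjamini-Hochberg adjustment at 0.05 over all genes tested, rule genes left untested). The SE beside a log2 fold change is its size divided by the square root of F. Cycling against non-cycling cells and CD8 against CD4 T cells had library as a block. Diet and tumour line were fitted together over 4 sums. Comparisons with CD4 T cells used 3 libraries in place of 4, since LFD_shYap had no cycling CD4 T cell. Samples were grouped by title. The labels carry no replicate numbers.

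Members, the 27 gene lists (406 of 411 symbols matched) and tests were chosen with earlier results of these data known. Named genes were rule genes, the 10 called genes with the largest log2 fold change each way (5 for diet and line) above 50 CPM, up to 4 abundant and 4 called genes of each list, and a fixed set of T cell genes. Macrophage-like barcodes were those with C1q genes and no Cd3. Doublets were ranked by a Scrublet score (scanpy 1.11.5), about 0.8% per 1000 barcodes, and removed only as an alternative. Alternatives were DESeq2 1.42.0 (test or size factors), no count filter, other thresholds, deeper cells, doublets, C1q, either sex-linked part of HFD_shYap, each library left out and, chosen after seeing the data, each gene without its highest cell. Fits were tested on simulated counts. Figures were drawn with matplotlib 3.10.9.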

Additional observations from a re-analysis of the deposited data

Results flagged for a closer look

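In 3 genes the cycling to non-cycling ratio pointed one way in both WT-MC38 libraries and the other way in both shYap-MC38 libraries, and the difference was not tested. They are 3 of 111 named genes with 20 or more UMIs in every sum (2.70%), and the pattern occurred in 274 of 4758 such genes in all (5.76%), so it was no more frequent among the named genes. No named gene showed it between diets, where 215 of all genes did (4.52%). The log2 ratio of CPM of Klre1, a lectin-like receptor, was 0.17 in LFD_WT and 0.12 in HFD_WT against -0.87 in LFD_shYap and -0.31 in HFD_shYap. That of Prf1, perforin, was -0.16 and -0.28 against 0.48 and 0.10. That of Tnfrsf9, the costimulatory receptor 4-1BB, was 0.48 and 0.064 against -0.07 and -0.19. In Klre1 the cycling sums held 81 to 411 UMIs, and in Prf1 72 to 238.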

How the results depend on the processing

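The labels carry no replicate numbers, so libraries were not paired across diets or tumour lines. Classes were paired within libraries, with library as the block, wherever 1 library gave both classes. Where a library was left out of diet or tumour line, that factor stood alone in the model and a lone library was assumed to vary like the others. Cycling against non-cycling cells: DESeq2 called 1451 genes in place of 2784, and leaving out a library gave 1940 to 2605. Cycling CD8 against CD4 T cells (197): DESeq2 80, no count filter 349, 5 or more Mki67 and Top2a UMIs 97, high doublet scores removed 75, only Xist-bearing cells in HFD_shYap 97, only Y-bearing 113, leaving out a library 59 to 430. The interaction (21): DESeq2 12, no filter 108, 5 or more UMIs 11, Xist-bearing 7, Y-bearing 4, leaving out a library 13 to 59. Diet (32): DESeq2 12, no filter 105, 2 or more UMIs 134, cells of 5000 or more UMIs 93, C1q under 0.1% 2, doublets removed 49, Y-bearing 15, without each gene's highest cell 53, treatment field 59, diet alone in the model 11, leaving out a library 23 to 97. Tumour line (18): DESeq2 6, no filter 67, 2 or more UMIs 92, 5000 or more UMIs 58, C1q under 0.1% 0 (385 genes at an unadjusted p under 0.05 in edgeR), doublets removed 49, Y-bearing 1, without the highest cell 45, treatment field 67, line alone 0 (397 unadjusted), leaving out a library 0 to 67. Cycling shares with C1q under 0.1% were 36.2% in LFD_WT, 28.9% in LFD_shYap and 24.6% in HFD_WT. Among cells with 5000 or more UMIs, a setting chosen after seeing the data, they were 31.7%, 28.9% and 24.0% in those libraries. Thinned to 3000 UMIs they were 10.1%, 10.3%, 8.75% and 8.29%, and thinned to 5000 HFD_shYap had 11.0%. At 2 or more UMIs HFD_WT had 22.2% and HFD_shYap 22.1%, and at 5 or more HFD_WT had 13.6%. The other 49 values of these comparisons stayed within 1.5 times or their interval.

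Of the values of named genes 8790 kept sign and side of the threshold, 198 gained a call, 552 lost it and 17 changed sign, and the causes were not tested. Gzmc in cycling against non-cycling cells was -0.40 at 5 or more UMIs. Against CD4 T cells Gzmd was -0.59 at 2 or more UMIs, Col3a1 2.78 with Xist-bearing cells, Tm4sf1 4.57 and Sparc 4.39 with Xist-bearing cells, and leaving out a library gave Tm4sf1 -1.63 to 3.76 and Sparc -1.96 to 7.08, both highest without HFD_shYap. In the interaction Sparc was 2.38 with Xist-bearing cells and -6.40 to 4.44 when a library was left out, and Gzma -3.25 to 0.41, highest without LFD_WT. For diet S100a9 was -0.27 and S100a8 -0.39 without high doublet scores, and Isg15 was -0.89 to 0.96 over left-out libraries, highest without LFD_WT. For tumour line the same range was -10.18 to 8.18 for Retnlg, -4.81 to 1.37 for S100a9, -3.69 to 1.41 for S100a8 and -3.76 to 0.62 for Gzmc, each highest without HFD_WT. Fits against sums of 0, as for Retnlg and Sparc, depend on the prior count.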
